A study of Mus musculus with 24 samples.

Results

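The genes described are Txnip, the other alpha-arrestins Arrdc1, Arrdc2, Arrdc3 and Arrdc4, the thioredoxins Txn1 and Txn2, and Mlxip, which encodes the transcription factor MondoA. They are 8 of 28328 genes with a summed transcript level in LLC1, a line grown from the mouse Lewis lung carcinoma. They were chosen by name, with the gene levels of these libraries already in view. Their levels and differences are therefore given as a description with no test. Of the 8, 7 reached 1 TPM (a transcript's share of all transcripts in its library, scaled so that each library sums to 1000000) in at least 3 libraries, and Arrdc4 did not.

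The 24 poly(A) RNA libraries form 8 groups of 3, in which every library was made from LLC1 cells kept for 6 h or 24 h with 1 of 4 additions. Untreated cells had 0.1% DMSO, and the labels give no DMSO level for the treated groups. Chemotherapy was cisplatin, which crosslinks DNA, at 2.5 µM together with pemetrexed, an antifolate, at 2.5 µM. Trametinib, an inhibitor of the kinases MEK1 and MEK2 that activate ERK, was given at 10 nM. The combination held all of these drugs. LLC1 is 1 established line, and the labels do not say whether the 3 libraries of a group came from separate cultures, so each error covers only the spread between these libraries.

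Between libraries of the same group, Pearson r over genes was 0.982 to 0.994, and no library stood apart. How many reads lie behind a TPM value is not known from the table, and a smaller share of the RNA cannot be told apart from less RNA per cell. The mesenchymal genes Vim, S100a4 and Fn1 had means of 3761, 6979 and 328 TPM, whereas Col1a1, of the same list, had a mean of 1.74 TPM. The epithelial keratins Krt8 and Krt18 had means of 136 and 223 TPM, whereas the epithelial adhesion gene Epcam did not exceed 0.0164 TPM. The 4 lung epithelium markers, among them Nkx2-1 and Sftpc, summed to 0.0210 to 0.348 TPM. The leukocyte gene Ptprc did not exceed 0.0121 TPM and the macrophage gene Adgre1 was listed at 0 in all 24 libraries, although Cd68, a lysosomal gene also used as a macrophage marker, ranged from 3.68 to 39.3 TPM. Coro1a, also of the leukocyte list, reached 4.10 TPM, and Lyz2 of the macrophage list 3.97 TPM. Of the endothelial genes, Pecam1 reached 12.7 TPM, and Cdh5, Kdr and Tie1 did not exceed 0.167 TPM.

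Txnip (thioredoxin-interacting protein) binds reduced thioredoxin and, like the other alpha-arrestins, carries PPxY motifs that recruit ubiquitin ligases of the NEDD4 family. Alpha-arrestins act as adaptors that direct membrane proteins to ubiquitination and endocytosis, and Txnip promotes the removal of the glucose transporter Slc2a1 from the cell surface. MondoA, with its partner Mlx, enters the nucleus when glucose 6-phosphate accumulates and binds carbohydrate response elements. The Txnip and Arrdc4 promoters are its best known targets. Thioredoxins reduce disulfides in other proteins, peroxiredoxins among them, and are themselves reduced by thioredoxin reductases.

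Because these elements define the shared control known for Txnip and Arrdc4, the 250 bases before the RefSeq start of each gene (GRCm38.p6) are shown 5′ to 3′ on the strand of the gene. Txnip lies at chr3:96557957-96561883 on the plus strand and its upstream stretch at chr3:96557707-96557956. Arrdc4 lies at chr7:68736995-68749241 on the minus strand and its upstream stretch at chr7:68749239-68749488. Capitals mark the CACGNG site, the CCAAT box and, for Txnip, the FOXO core GTAAACA, each on either strand.
Txnip: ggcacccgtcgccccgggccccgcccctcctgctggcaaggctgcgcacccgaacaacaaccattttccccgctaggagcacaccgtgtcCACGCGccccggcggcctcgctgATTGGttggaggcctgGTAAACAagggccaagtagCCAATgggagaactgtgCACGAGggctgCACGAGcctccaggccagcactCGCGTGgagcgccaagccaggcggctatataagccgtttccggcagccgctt
Arrdc4: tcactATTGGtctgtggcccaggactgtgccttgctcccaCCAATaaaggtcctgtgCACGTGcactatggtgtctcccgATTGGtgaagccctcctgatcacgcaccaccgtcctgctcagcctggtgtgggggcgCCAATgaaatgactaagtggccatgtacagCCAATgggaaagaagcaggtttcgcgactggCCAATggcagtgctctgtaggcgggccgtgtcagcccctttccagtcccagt

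The Txnip stretch held 4 CACGNG sites, of which a pair is separated by 5 bases in the same direction, the spacing known for a carbohydrate response element. The paired site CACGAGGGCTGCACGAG lies 85 to 69 bases before the start, at chr3:96557872-96557888. In a search of both strands of 32851 RefSeq promoters of 27025 gene symbols, a CACGNG site was found in 23.5% and such a pair in 15 promoters, or 0.0457%. Txnip was the 1 member with a pair. The search covered only CACGNG sites 5 bases apart in the same direction, not pairs in opposite directions or with other letters. The Arrdc4 stretch held 1 CACGNG site, which is a full E box (CACGTG, found in 6.02% of promoters), 193 to 188 bases before the start. It held 6 CCAAT boxes, a motif of factor NF-Y found in 33.8% of promoters, and the Txnip stretch held 2. The FOXO core occurs in 3.17% of promoters and in the Txnip stretch 121 to 115 bases before the start. No CACGNG site was in the stretches of Arrdc3, Txn1 and Txn2. Arrdc1 held 2 such sites, Arrdc2 held 1, and Mlxip held none. These letters describe the windows only, and binding was not measured.

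Txnip had the widest range of the 8 members among those tested, from 5.46 TPM in a library of untreated cells at 6 h to 925 TPM in a library of the combination at 24 h. At 6 h it read 7.74, 8.42 and 5.46 TPM in untreated cells and 10.4, 9.60 and 13.1 TPM with chemotherapy. With trametinib it read 27.1, 34.3 and 37.5 TPM, and with the combination 41.6, 47.7 and 53.2 TPM. At 6 h no library of any group overlapped another group, and the order was untreated, chemotherapy, trametinib, combination. The difference from untreated cells, in mean log2(TPM + 1), was 0.56 ± 0.13 (SE, n = 3 libraries per group) for chemotherapy, 2.06 ± 0.13 for trametinib and 2.57 ± 0.13 for the combination. Each SE of a log2 difference uses 1 spread per gene over all 8 groups, not the spread of the groups compared. The group means were 1.53, 4.57 and 6.59 times the untreated mean of 7.21 ± 1.55 TPM (SD, n = 3).

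At 24 h Txnip read 26.0, 24.1 and 24.0 TPM in untreated cells, 583, 641 and 639 TPM with chemotherapy, and 252, 285 and 304 TPM with trametinib. It read 925, 881 and 845 TPM with the combination. The groups again did not overlap, but chemotherapy, which had been nearest to untreated cells at 6 h, now stood above trametinib. The differences from untreated cells were 4.60, 3.45 and 5.10 on the log2 scale, each ± 0.13, and the ratios of means 25.1, 11.3 and 35.7. Untreated cells themselves were 3.43 times higher at 24 h than at 6 h, a log2 difference of 1.67 ± 0.13. In rank among all genes by TPM, Txnip moved from a mean of 8441 in untreated cells at 6 h to 4956 at 24 h, and at 24 h it stood at 425 with trametinib, 184 with chemotherapy and 139 with the combination.

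**Figure D1:**
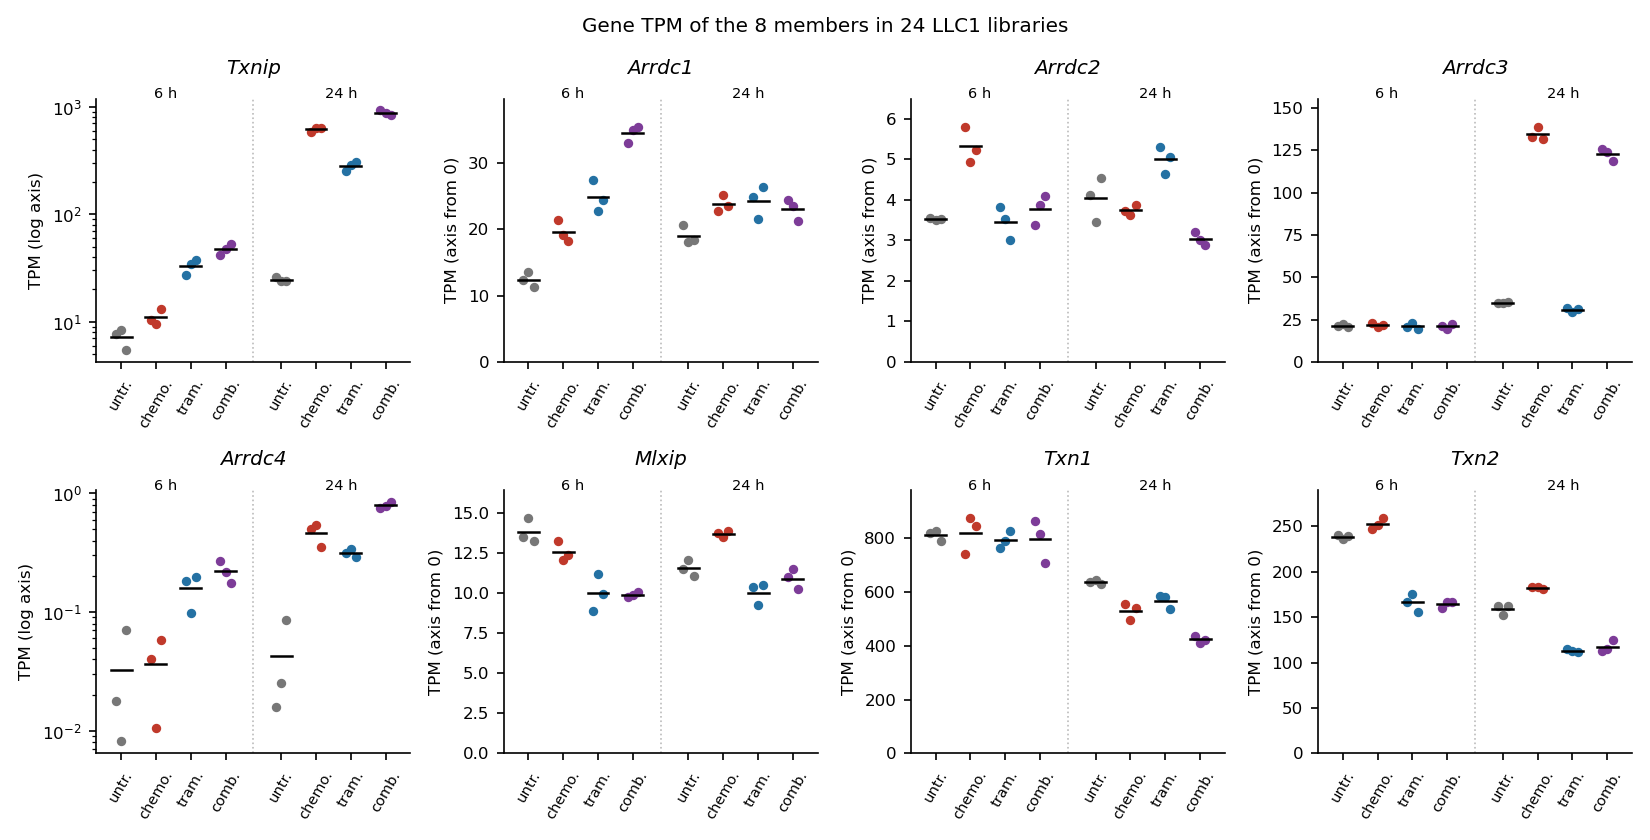
TPM of each member in every library, by treatment at 6 h (left of the dotted line) and 24 h (right); points are libraries, bars are means of 3, and Txnip and Arrdc4 have a log axis. Txnip runs from 5.46 to 925 TPM with no overlap between groups, and Arrdc3 is high in chemotherapy and combination at 24 h alone.

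The combination can be set against its parts on either scale. At 24 h the TPM gained with chemotherapy and the TPM gained with trametinib, added to the untreated mean, come to 877 TPM, and the combination was at 883 ± 39.9 TPM (SD, n = 3), a difference of 6.55 TPM with a standard error of 33.6. Multiplying the ratios would give 7049 TPM, and on the log2 scale the combination was 2.94 ± 0.19 below the sum of the single differences. At 6 h the combination lay nearer to the product than to the linear sum. The linear sum was 36.8 TPM, the product of ratios 50.4 TPM and the combination 47.5 ± 5.80 TPM, which on the log2 scale lay -0.038 ± 0.19 from the sum. Its difference from the linear sum at 6 h was 10.7 TPM with a standard error of 4.75, and the product has no error attached. Adding trametinib to chemotherapy went with a log2 difference of 2.02 at 6 h and 0.51 at 24 h. Adding chemotherapy to trametinib went with 0.52 at 6 h and 1.65 at 24 h, each ± 0.13, with no overlap between libraries in any of these pairs.

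Arrdc4, the alpha-arrestin closest to Txnip in known regulation, was under 1 TPM in every library and was not tested. At 6 h it read 0.0177, 0.00812 and 0.0710 TPM in untreated cells and 0.0402, 0.0106 and 0.0586 TPM with chemotherapy, which overlapped. It read 0.183, 0.0981 and 0.199 TPM with trametinib and 0.268, 0.216 and 0.176 TPM with the combination, all above every untreated library. At 24 h the untreated libraries read 0.0159, 0.0253 and 0.0862 TPM and those with chemotherapy 0.499, 0.538 and 0.351 TPM. With trametinib Arrdc4 read 0.314, 0.342 and 0.293 TPM, and with the combination 0.758, 0.775 and 0.845 TPM. The order of the 4 groups at 24 h was the same as for Txnip and no groups overlapped. The linear sum of the parts at 24 h was 0.737 TPM beside 0.793 ± 0.0458 TPM observed, a difference of 0.0560 TPM with a standard error of 0.0681. Over the 24 libraries Arrdc4 and Txnip had a Pearson r of 0.92 on log2(TPM + 1), with 0.87 among the 12 libraries at 6 h and 0.92 among the 12 at 24 h. These libraries share treatments and times, so the correlations given here are descriptions.

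**Figure D2:**
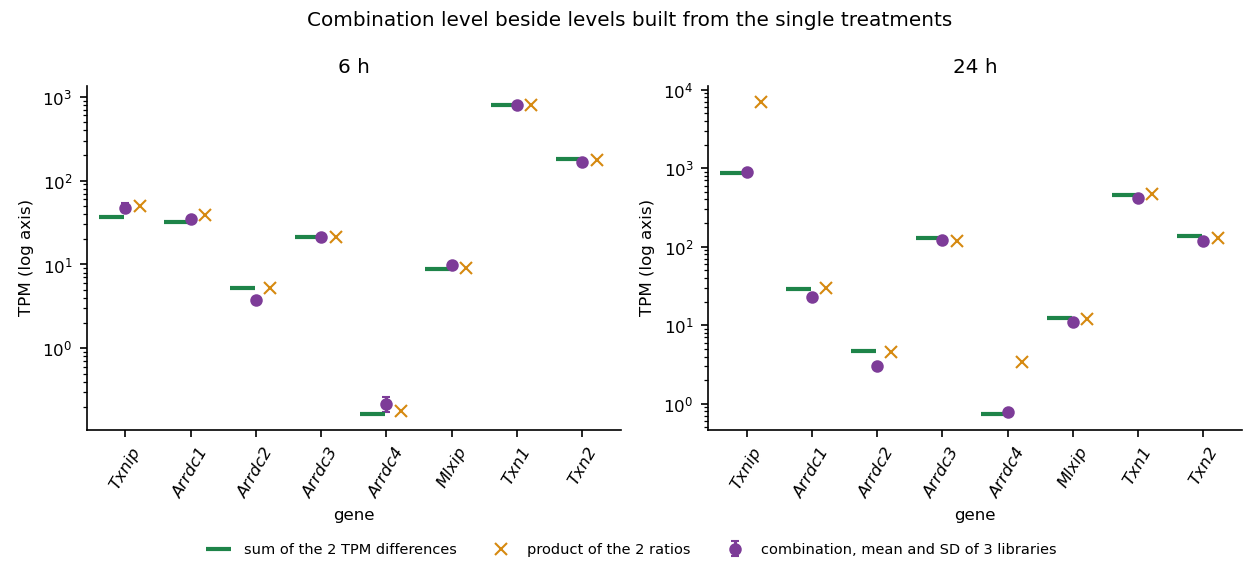
Mean TPM of each member in the combination (purple point, bar is the SD of 3 libraries), beside the untreated mean plus both TPM differences (green dash) and times both ratios (orange cross), on a log axis, at 6 h and 24 h. For Txnip at 24 h the point at 883 TPM lies on the dash at 877 TPM and far under the cross at 7049 TPM.

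Arrdc3, an adaptor for ubiquitination of G protein-coupled receptors, did not separate the groups at 6 h, where all 12 libraries lay between 19.2 and 23.2 TPM. At 24 h it read 34.9, 34.6 and 35.7 TPM in untreated cells, 133, 139 and 132 TPM with chemotherapy, and 126, 124 and 119 TPM with the combination. With trametinib it read 32.0, 29.3 and 31.4 TPM, below every untreated library. Chemotherapy therefore stood 3.84 times and the combination 3.51 times above untreated cells, with log2 differences of 1.91 and 1.78, and trametinib stood at -0.18, each ± 0.062. Unlike Txnip, Arrdc3 in the combination was under chemotherapy alone in every library, by 0.13 ± 0.062 on the log2 scale. The fit across all genes (limma, threshold of adjusted p 0.05) did not call this difference. Its r with Txnip was 0.84 over all 24 libraries, -0.16 within 6 h and 0.74 within 24 h.

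Arrdc1, which helps to form vesicles that bud from the plasma membrane, had its highest level in the combination at 6 h. It read 12.3, 13.6 and 11.3 TPM in untreated cells at 6 h, 21.4, 19.1 and 18.2 TPM with chemotherapy, 27.4, 22.7 and 24.3 TPM with trametinib, and 33.0, 34.9 and 35.4 TPM with the combination. These groups did not overlap, and the means were 1.57, 2.00 and 2.77 times the untreated mean. At 24 h the 4 groups lay closer, with means of 19.0, 23.7, 24.2 and 23.0 TPM in the same order. The treated libraries all exceeded the untreated ones, with log2 differences of 0.31, 0.33 and 0.26 (each ± 0.086), and the treated groups overlapped each other.

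Arrdc2 was the lowest of the members that were tested, at 2.88 to 5.80 TPM. Its highest mean, 5.32 ± 0.437 TPM (SD, n = 3), was with chemotherapy at 6 h against 3.53 ± 0.0282 TPM in untreated cells. Its lowest mean was 3.03 ± 0.162 TPM with the combination at 24 h against 4.04 ± 0.549 TPM in untreated cells. At 24 h it was 5.00 ± 0.334 TPM with trametinib, so the combination stood below both single treatments. Arrdc2 did not follow Txnip, with r of -0.25 over the 24 libraries.

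Among the 5 alpha-arrestins together, Txnip made up 16.0% ± 2.35 (SD, n = 3) of the summed TPM in untreated cells at 6 h and 29.8% ± 0.694 at 24 h. With treatment at 24 h it made up 79.2% ± 0.781 with chemotherapy, 82.2% ± 1.81 with trametinib and 85.5% ± 0.185 with the combination. Arrdc3 held the largest share in untreated cells at both times, at means of 21.5 and 35.1 TPM.

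Txn1, the cytosolic thioredoxin, had the highest mean TPM of the members in each group except chemotherapy and the combination at 24 h, where Txnip was higher. At 6 h its libraries overlapped across the 4 groups, with means of 809, 817, 791 and 794 TPM for untreated cells, chemotherapy, trametinib and the combination. At 24 h it read 636, 644 and 629 TPM in untreated cells, 555, 496 and 538 TPM with chemotherapy, 583, 580 and 536 TPM with trametinib, and 437, 411 and 422 TPM with the combination. Every treated library was below every untreated one, and the combination was below both single treatments, with a log2 difference of -0.59 ± 0.068 from untreated cells. Txnip and Txn1 thus ran in opposite directions at 24 h. Per 100 TPM of Txn1 there were 0.888 ± 0.171 TPM of Txnip (SD, n = 3) in untreated cells at 6 h and 3.88 ± 0.188 at 24 h. At 24 h there were 49.7 ± 6.78 with trametinib, 118 ± 12.1 with chemotherapy and 209 ± 7.47 with the combination. These are ratios of RNA and not of protein.

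Txn2, the mitochondrial thioredoxin, divided the libraries by trametinib. At 6 h it read 240, 236 and 239 TPM in untreated cells and 247, 251 and 259 TPM with chemotherapy, but 167, 176 and 156 TPM with trametinib and 160, 167 and 167 TPM with the combination. At 24 h the means were 159, 183, 113 and 118 TPM in the same order of groups. The log2 differences for trametinib were -0.52 at 6 h and -0.49 at 24 h, and for the combination -0.53 and -0.43, each ± 0.044. In both pairs of groups with trametinib every library was below every untreated library of its time.

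Mlxip, the gene of MondoA, ranged from 8.88 to 14.7 TPM over all 24 libraries. At 6 h it was 13.8 ± 0.759 TPM in untreated cells (SD, n = 3), 12.6 ± 0.622 with chemotherapy, 10.0 (8.88 to 11.2 in its libraries) with trametinib and 9.92 ± 0.191 with the combination. At 24 h it was 11.6 ± 0.489, 13.8 ± 0.197, 10.0 ± 0.685 and 10.9 ± 0.618 TPM. The chemotherapy libraries at 24 h all exceeded the untreated ones, and the trametinib libraries were all lower, at log2 differences of 0.24 and -0.19 (each ± 0.068). At 6 h the trametinib and combination libraries, which held the most Txnip at that time, were all below the untreated ones, at -0.43 and -0.44 (each ± 0.068). The combination at 24 h, with the most Txnip of all, overlapped untreated cells at -0.073. The r of Mlxip with Txnip was -0.87 within 6 h, 0.11 within 24 h and -0.17 over all 24 libraries.

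**Figure D3:**
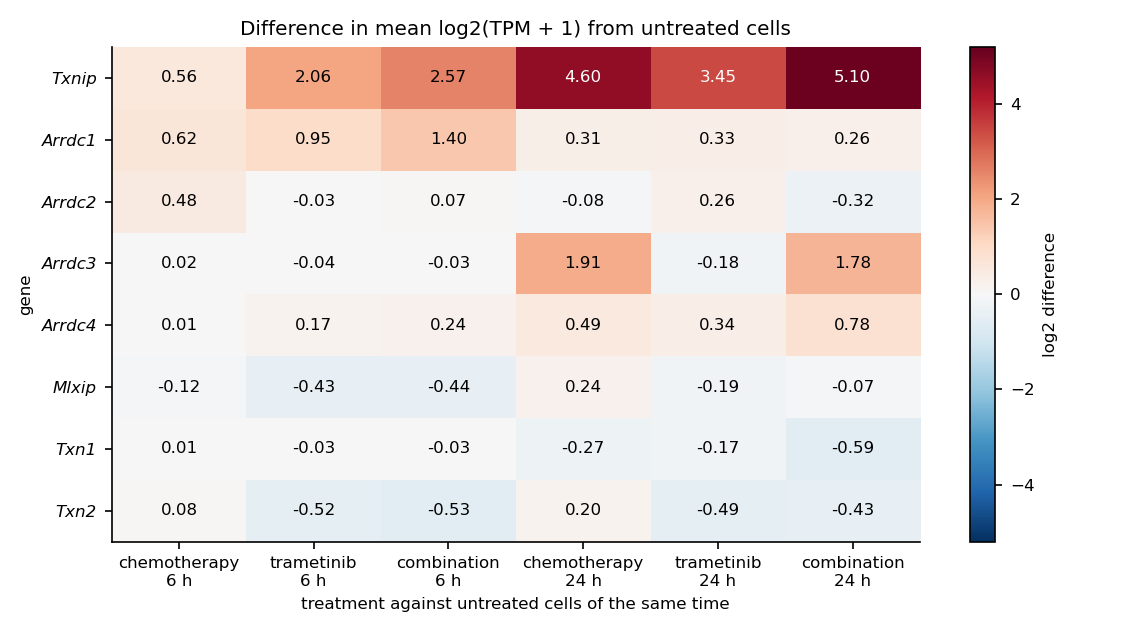
Difference in mean log2(TPM + 1) between each treatment and untreated cells of the same time, for the 8 members (rows) and 6 comparisons (columns); red is higher and blue lower. Txnip has the largest value in each column except chemotherapy at 6 h, where Arrdc1 is at 0.62 and Txnip at 0.56, and Arrdc4 values are small because of the added 1.

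Counts of members past the threshold of the fit across all genes (limma, adjusted p under 0.05) are given only beside the share of all 12581 tested genes, since the members were chosen on the same values. With chemotherapy at 6 h, 3 of the 7 tested members were higher and 0 lower, and 11.3% of all genes were higher and 13.5% lower. With trametinib at 6 h, 2 were higher and 2 lower beside 35.9% and 18.9% of all genes, and with the combination 2 and 2 beside 38.6% and 19.8%. At 24 h, 5 were higher and 1 lower with chemotherapy beside 34.9% and 24.3%, 3 and 4 with trametinib beside 32.4% and 26.3%, and 3 and 3 with the combination beside 39.6% and 23.8%. Between 6 h and 24 h in untreated cells, 3 were higher and 3 lower beside 29.4% and 31.4%. Rescaling each library by a median ratio moved the median of all genes by 0.11 in the combination at both times, after which Arrdc1 in the combination at 24 h was at 0.14 in place of 0.26 and no longer past the threshold. Mlxip in the same comparison then passed it as lower (-0.19), as did Arrdc3 at 6 h with trametinib (-0.13) and the combination (-0.15). With rescaling, the share of calls that were higher went from 65.5% to 52.3% for trametinib at 6 h, from 66.1% to 51.2% for the combination at 6 h and from 62.4% to 50.5% at 24 h.

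How the RNA of a gene divided among its transcripts was not used to choose the members and was tested. The 1 TPM added to both parts makes the fitted odds depend on gene level for transcripts near 1 TPM. Of the transcripts of the members, 15 held between 5% and 95% of their gene. At 6 h limma called 0 of the 15 with chemotherapy, trametinib or the combination, where 2, 1 and 2 had an unadjusted p under 0.05, and 0.0825%, 1.38% and 3.09% of 21824 tested transcripts of all genes were called. At 24 h it called 0 of 15 with chemotherapy and 0 with trametinib, where 2 and 0 had an unadjusted p under 0.05, beside 14.9% and 7.02% of all transcripts. With the combination at 24 h it called 1 of 15, where 3 had an unadjusted p under 0.05, beside 11.7%. Between 6 h and 24 h in untreated cells it called 1 of 15 beside 9.01%. None of these counts stands above the share of all transcripts, so the calls are read as values of single transcripts.

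The transcript called in untreated cells was a form of Arrdc3 annotated for nonsense-mediated decay. It held 11.7% ± 1.19 of Arrdc3 (SD, n = 3) at 6 h and 5.56% ± 2.26 at 24 h, and the libraries of the 6 h and 24 h groups did not overlap. The change in log2 odds of its share was -1.05 ± 0.28 (limma, adjusted p = 0.0236). The call ended without the first (adjusted p = 0.0600) or the third (0.0920) library at 6 h and without the second (0.0956) or the third (0.0967) at 24 h, where the change stayed between -1.07 and -0.92.

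The transcript called in the combination was Txnip-203, a short form of 393 bases annotated as a retained intron, which includes intron 6 of Txnip (chr3:96560095-96560207). It held 8.28% ± 4.67 of Txnip (SD, n = 3) in untreated cells at 24 h, 14.8% ± 5.94 with chemotherapy, 13.4% ± 2.22 with trametinib and 2.77% ± 2.42 with the combination. The change in log2 odds of the share was -3.24 ± 1.02 against untreated cells (limma, adjusted p = 0.0458). Set against chemotherapy it was -3.67 ± 1.02 (adjusted p = 0.0355), and set against trametinib -3.58 ± 1.02 (adjusted p = 0.0487), in comparisons that called 6.62% and 5.03% of all transcripts. Without the second library of the combination, where the transcript was near 0, the values were -1.48 (adjusted p = 0.238), -1.90 (0.156) and -1.82 (0.202). The call against untreated cells also ended without any 1 of the 3 untreated libraries, that against trametinib without any 1 of the 3 trametinib libraries, and that against chemotherapy without the first or the third chemotherapy library.

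The 2 retained-intron transcripts of Txnip together held 22.4% ± 5.10 of its TPM in untreated cells at 24 h, 32.4% ± 4.28 with chemotherapy, 29.5% ± 0.475 with trametinib and 20.3% ± 2.14 with the combination. Protein-coding transcripts alone came to 19.2 ± 0.740 TPM in untreated cells at 24 h, 410 ± 14.6 with chemotherapy, 198 ± 18.9 with trametinib and 704 ± 41.4 with the combination, the same order of groups as for the whole gene. Sequence shared with other genes was small. Of the 31-base words of the Txnip transcripts, 0.13% also occur in another gene, and for Txn1 0% do. The largest share was 1.62%, for Txn2.

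**Figure D4:**
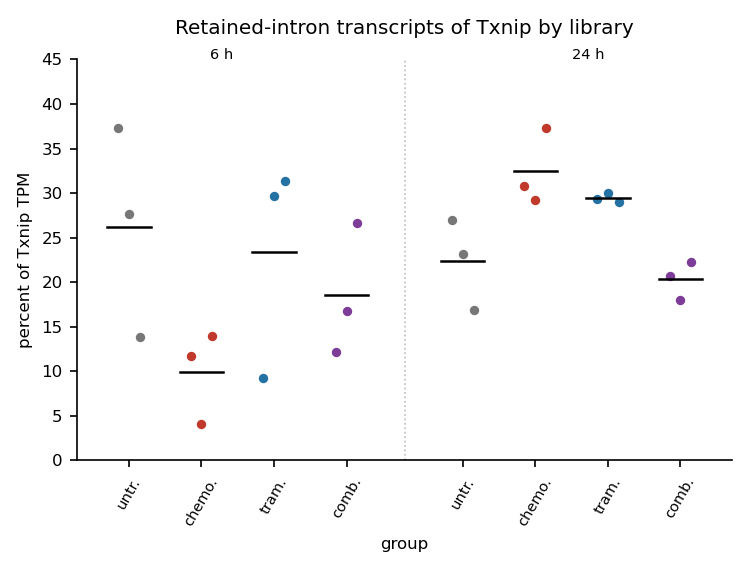
Percent of Txnip TPM in its 2 retained-intron transcripts, by library (points) and group (bars are means of 3), at 6 h and 24 h. At 24 h the combination (mean 20.3%) lies below chemotherapy (32.4%) and trametinib (29.5%), and the libraries of most 6 h groups spread more widely.

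The wider pathway was read from 9 lists of 72 genes, of which 61 were tested. Beside each count stands the share of all tested genes called in that direction. At 6 h, 8 rose (11.3% of all genes) and 7 fell (13.5%) with chemotherapy, 25 rose (35.9%) and 11 fell (18.9%) with trametinib, and 28 rose (38.6%) and 14 fell (19.8%) with the combination. At 24 h, 24 rose (34.9%) and 23 fell (24.3%) with chemotherapy, 21 rose (32.4%) and 20 fell (26.3%) with trametinib, and 24 rose (39.6%) and 18 fell (23.8%) with the combination. Most of these counts are near the background, so they are read as values of single genes. The lists' median differences in these 6 comparisons were 0.0015, 0.052, 0.15, 0.079, -0.0062 and 0.048 on the log2 scale, and the medians of all genes 0.0095, 0.10, 0.11, 0.057, 0.036 and 0.10.

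Of the 3 thioredoxin reductases, which recycle oxidised thioredoxin, all (Txnrd1, Txnrd2 and Txnrd3) fell at 24 h with chemotherapy and with the combination, where 24.3% and 23.8% of all genes fell. Txnrd1 alone of the 3 was called with trametinib. The call of Txnrd2 in the combination (-0.37, adjusted p = 0.0274) ended without the first (adjusted p = 0.162) or the second (0.0926) untreated library or the third library of the combination (0.234). Txnrd1, the cytosolic enzyme, was 251 ± 6.02 TPM in untreated cells at 24 h (SD, n = 3), 130 ± 1.56 with chemotherapy, 82.2 ± 5.66 with trametinib and 90.6 ± 4.90 with the combination. Its log2 differences were -0.95 (limma, adjusted p = 1.95e-10), -1.60 (7.27e-14) and -1.46 (1.96e-13), each ± 0.063 with no overlap. At 6 h it fell with trametinib (-0.53) and the combination (-0.46), and it was at -0.084 with chemotherapy (adjusted p = 0.365). At 24 h Txnrd1 and Txn1 were thus below untreated cells in every library of each treatment, where Txnip was above.

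Peroxiredoxins, which use thioredoxin to reduce peroxides, and methionine sulfoxide reductases, which repair oxidised methionine, moved in both directions. Of the 11 genes, 6 rose and 3 fell with trametinib at 24 h, where 32.4% of all genes rose and 26.3% fell. With the combination 7 rose and 4 fell, beside 39.6% and 23.8%. Prdx3, Prdx6 and Srxn1 fell in both. Msra fell with chemotherapy, from 2.71 ± 0.0574 to 0.162 ± 0.0559 TPM (-1.67), and with the combination (-0.61), and rose with trametinib (1.02), each ± 0.075. Prdx6, a peroxiredoxin that draws on glutathione and not on thioredoxin, fell with trametinib from 601 ± 19.6 to 310 ± 23.8 TPM at 24 h (log2 difference -0.95 ± 0.054, adjusted p = 1.58e-11). Prdx4, the peroxiredoxin of the endoplasmic reticulum, rose from 115 ± 3.82 to 201 ± 3.89 TPM with trametinib and to 186 ± 3.19 TPM with the combination (0.69 ± 0.047, adjusted p = 2.04e-10). Msrb3 rose with trametinib from 2.37 ± 0.440 to 16.9 ± 2.83 TPM (2.41 ± 0.12, adjusted p = 1.83e-12) and was 7.37 ± 0.533 TPM with the combination. Msrb1, a selenoprotein, rose at 6 h with trametinib by 0.82 and with the combination by 0.87 (each ± 0.072). With chemotherapy at 6 h the call of Prdx4 (0.17, adjusted p = 0.0118) ended without the second untreated library (0.15, adjusted p = 0.0598) and without the first chemotherapy library (0.11, adjusted p = 0.0686).

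Among 19 thioredoxin-fold relatives, 8 rose and 7 fell with chemotherapy at 24 h, beside 34.9% and 24.3% of all genes. With the combination 7 rose and 4 (Glrx, Glrx2, Tmx4 and Txndc12) fell, beside 39.6% and 23.8%. The counts of genes that rose are near the background. Nxn, nucleoredoxin, was 26.9 ± 0.655 TPM in untreated cells at 24 h, 42.4 ± 0.394 with chemotherapy, 38.7 ± 1.59 with trametinib and 55.8 ± 1.93 with the combination. Its log2 difference in the combination was 1.03 ± 0.040 (adjusted p = 5.66e-14). Tmx2, a membrane-bound relative in the endoplasmic reticulum, rose with chemotherapy at 24 h from 47.1 ± 2.79 to 94.3 ± 5.39 TPM (0.99 ± 0.081, adjusted p = 4.23e-09). Its smaller rise with trametinib at 24 h (0.25, adjusted p = 0.0135) ended without the third untreated library (0.20, adjusted p = 0.0709) and without the first trametinib library (0.17, adjusted p = 0.0970). At 6 h Nxn rose in the combination by 0.20, and after rescaling it was at 0.069 and not called.

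Of the genes on either side of MondoA, its partner Mlx rose at 24 h with chemotherapy (0.32 ± 0.075, adjusted p = 0.00115) and the combination (0.33, adjusted p = 7.24e-04) and was at 0.15 with trametinib (adjusted p = 0.102). In the combination at 6 h Mlx was called at 0.23 (adjusted p = 0.0128), and the call ended with rescaling (0.098), without the first untreated library (0.20, adjusted p = 0.0591) and without the third library of the combination (0.20, adjusted p = 0.0552). Mlxipl, the gene of the MondoA relative ChREBP, had a mean of 0.141 TPM and was not tested. FOXO factors are further activators known for Txnip. All 3 tested, Foxo1, Foxo3 and Foxo4, rose at 6 h with trametinib (by 0.42, 0.34 and 0.35) and the combination (0.38, 0.43 and 0.36). There 35.9% and 38.6% of all genes rose. Foxo1 was low, at means of 0.534 TPM in untreated cells, 1.06 with trametinib and 0.992 with the combination. With trametinib at 24 h 0 of the 3 rose and 1, Foxo4, fell, beside 32.4% and 26.3% of all genes. That call ended without the first untreated (limma, adjusted p = 0.0898) or the first trametinib library (0.0510). At 24 h with the combination Foxo3 rose by 0.38, Foxo4 fell by 0.60 and Foxo1 was at -0.17 (adjusted p = 0.0812), or called lower at -0.24 after rescaling. These FOXO genes, like the other members of counts of 5 or fewer, are named after their values were seen.

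Of 5 tested genes of glucose uptake and phosphorylation, 4 fell in each treatment at 24 h, where 24.3%, 26.3% and 23.8% of all genes fell. Slc2a1, Slc2a3 and Hk2 fell in all 3, Hk1 with chemotherapy, and Slc2a8 with trametinib and the combination. Hk1 rose with trametinib at 24 h, from 73.2 ± 2.23 to 90.0 ± 5.76 TPM. At 6 h Hk1 rose with trametinib (0.54) and the combination (0.32). With the combination at 6 h, 2 of the 5 rose and 3 (Slc2a1, Slc2a3 and Hk2) fell, beside 38.6% and 19.8% of all genes. There Slc2a1 was 56.6 ± 5.80 TPM against 90.2 ± 4.80 in untreated cells. The call of Slc2a3 there ended without the second untreated library (limma, adjusted p = 0.0516) or the third library of the combination (0.0818). Slc2a8 rose in all 3 treatments at 6 h, from 1.66 ± 0.158 TPM in untreated cells to 2.74 ± 0.127 with chemotherapy (adjusted p = 0.00543), 4.75 ± 0.700 with trametinib and 4.90 ± 0.961 with the combination. The call of Slc2a3 with chemotherapy at 24 h (-0.28, adjusted p = 0.0498) ended without any 1 of the untreated libraries or the first or the second chemotherapy library (adjusted p = 0.0550 to 0.181). That of Slc2a8 with trametinib (-0.37, adjusted p = 0.0131) ended without the first untreated library (0.0621) or the first trametinib library (0.0666). Slc2a1, the glucose transporter whose surface level Txnip limits, was 68.7 ± 6.42 TPM in untreated cells at 24 h, 43.5 ± 5.26 with chemotherapy, 43.4 ± 9.37 with trametinib and 31.6 ± 2.06 with the combination. Its log2 differences were -0.65 (adjusted p = 5.49e-04), -0.67 (4.14e-04) and -1.09 (1.30e-06), each ± 0.14. Hk2, hexokinase 2, which makes the glucose 6-phosphate that MondoA reads, fell in the combination at 6 h from 113 ± 6.09 to 30.5 ± 4.91 TPM (-1.86 ± 0.15, adjusted p = 2.87e-09). With trametinib at 6 h it was at -1.29, and with chemotherapy at 6 h at -0.26 (adjusted p = 0.228). At 24 h it was 79.7 ± 1.65 TPM in untreated cells, 41.2 ± 2.90 with chemotherapy, 31.3 ± 9.08 with trametinib and 22.5 ± 1.62 with the combination.

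The NEDD4-family ligases and their adaptors, partners of the PPxY motifs, fell with chemotherapy at 6 h in 5 of 10 genes (Nedd4l, Wwp2, Smurf1, Smurf2 and Itch) and rose in 0, where 13.5% of all genes fell and 11.3% rose. The calls of Itch and Smurf2 each ended without the second untreated library (adjusted p = 0.0511 and 0.155) or the second chemotherapy library (0.0695 and 0.266), and that of Smurf2 also without the third untreated (0.116) or the third chemotherapy library (0.0801). Nedd4l fell from 11.5 ± 0.382 to 6.16 ± 0.233 TPM (-0.80 ± 0.057, adjusted p = 7.84e-09), Wwp2 by 0.44 ± 0.058 (adjusted p = 1.80e-05) and Smurf1 by 0.29 ± 0.064 (adjusted p = 0.00260). With trametinib at 6 h Wwp2 rose from 19.6 ± 0.322 to 30.2 ± 0.888 TPM. In the combination at 24 h, 5 of 10 (Nedd4l, Wwp2, Itch, Ndfip1 and Ndfip2) rose and 0 fell, beside 39.6% and 23.8% of all genes, with Nedd4l at 0.43 and Wwp2 at 0.51. The call of Ndfip2 (0.25, adjusted p = 0.0248) ended without the third untreated library (0.0684) or the first (0.0605) or the second (0.0565) library of the combination. After rescaling, Ndfip2 (0.13) was not called there, and Wwp1 (-0.18) and Smurf2 (-0.28) were called lower. Smurf1 calls in the combination at 6 h (-0.20) and with trametinib at 24 h (-0.16, adjusted p = 0.0348) were lost without certain single libraries. For the combination these were the second untreated library (-0.15) and the second library of the combination (-0.14). For trametinib they were the first (-0.14) and second (-0.17) untreated libraries and the second trametinib library (-0.12). Arrdc5, a further arrestin-domain gene, had a mean of 0.0143 TPM, and Nlrp3, the inflammasome gene whose protein binds Txnip, a mean of 0.135 TPM, so neither was tested.

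**Figure D5:**
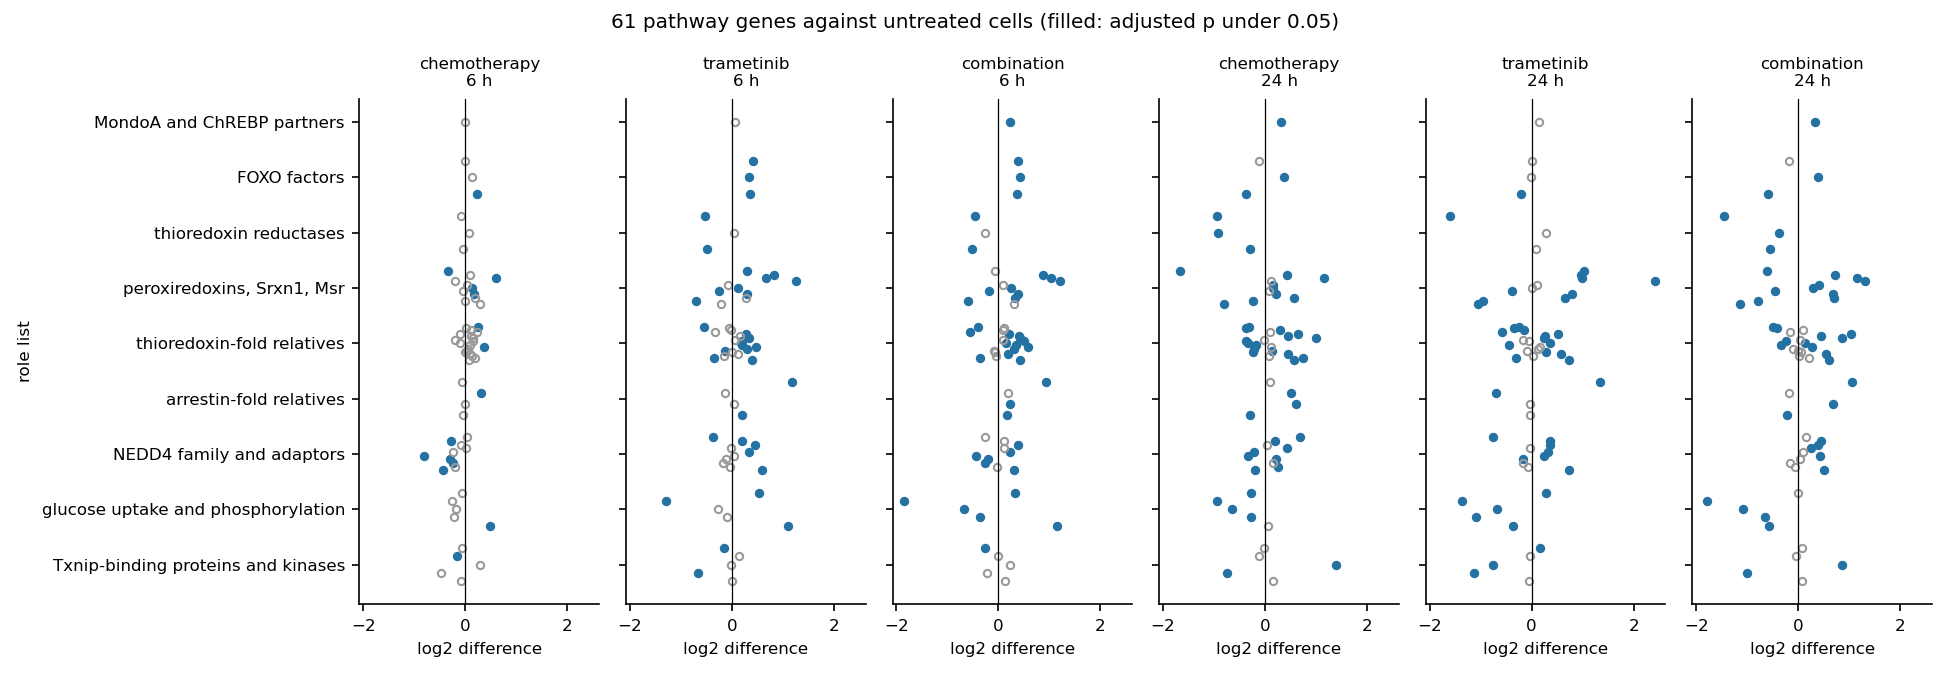
Log2 difference from untreated cells of 61 pathway genes (points) by list (rows) in 6 comparisons (panels); filled points passed an adjusted p under 0.05. At 24 h all 3 thioredoxin reductases lie left of 0 with chemotherapy and the combination, and Txnrd1 alone with trametinib, where the list's median was 0.085.

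Among 8961 genes with a mean of at least 5 TPM, those most like Txnip over the 24 libraries were Atg14, a subunit of the kinase complex that starts autophagosomes (r = 0.98), and Ifitm1, Tsc22d3, Lgals3bp and Qpct (each 0.97). Atg14 averaged 3.39 TPM in untreated cells at 6 h and 4.88, 11.2, 7.35 and 10.9 TPM at 24 h in untreated cells, chemotherapy, trametinib and the combination. Ifitm1, an interferon-induced membrane protein, averaged 35.1, 138, 72.3 and 109 TPM in the same groups at 24 h, and Tsc22d3, a glucocorticoid-induced leucine zipper gene, 11.8, 38.1, 28.1 and 30.5 TPM. Each has its highest mean with chemotherapy, whereas Txnip has its highest with the combination. Lgals3bp, a secreted glycoprotein, at 7.43, 22.4, 18.0 and 31.1 TPM, and Qpct, glutaminyl cyclase, at 6.14, 14.0, 8.65 and 16.6 TPM, were highest with the combination. The genes most unlike Txnip were Pus7l and Cers2 (r = -0.97), Ptcd2 (-0.96), and Psmg2 and Mogs (-0.95). Pus7l, a pseudouridine synthase relative, averaged 9.72 TPM in untreated cells at 24 h and 4.39, 5.72 and 3.46 TPM with chemotherapy, trametinib and the combination.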

How the data were processed

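RNA of 24 LLC1 libraries was measured by sequencing. The deposited values are TPM per transcript, made with bcl2fastq 2.17.1.14 and kallisto 0.45 on GRCm38, per the submitters' processing notes. Their transcript annotation was not given in the sources used here. Each column summed to 1000000 TPM, so depth is unknown, and 0 columns were left unused. Transcript TPM were summed per gene with GENCODE M21, which matched 79662 of 82934 transcripts. The 3272 unmatched ones held 4.45% to 5.98% of TPM and were left out.

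The 12581 genes that reached 1 TPM in 3 or more libraries were fitted as log2(TPM + 1), each group having 1 mean, by limma 3.58.1 (R 4.3.3), with 16 residual degrees of freedom and a trend on level. Two-sided p-values were adjusted by Benjamini-Hochberg over all genes, with a threshold of 0.05, in 16 comparisons. The added 1 understates changes of low genes. Transcript shares were fitted as log2 odds with 1 TPM added to both parts. The steps were tested on simulated data.

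The members and lists were chosen with earlier results of these data known. All members were described. Named from the lists were Mlx, Mlxipl, Txnrd1, Slc2a1, Nlrp3 and Arrdc5, and, in each of 6 comparisons, the 3 called genes of smallest p whose higher group had 5 TPM or more. The 5 genes most and least correlated with Txnip were named, without predicted genes, clones and pseudogenes. Of the list genes, Dscr3 had no match by symbol and 10 others were below the filter. RefSeq promoters were matched by symbol for 8 of 8 members. The alternatives were other pseudocounts, filters and scaling, fits of only the groups compared, a stricter p, protein-coding transcripts alone, the replicate number as a block, and leaving out each library.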

Additional observations from a re-analysis of the deposited data

Results flagged for a closer look

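For several list genes the calls at 6 h and 24 h had opposite signs. For 2 of these, both NEDD4-family ligases, the difference between the effects is given (limma, Benjamini-Hochberg adjusted). They were picked by these opposite signs in the same libraries, so a small p was all but given in advance and adds no support. Of all 12581 genes, this difference was called higher in 3566 and lower in 2102 with chemotherapy, and in 3186 and 3063 with the combination. Other list genes also reversed, among them Itch, a further NEDD4-family ligase, with chemotherapy, and Foxo4 with the combination. For Smurf1 with chemotherapy the effect at 24 h minus that at 6 h was 0.51 ± 0.091 (adjusted p = 1.51e-04), from -0.29 at 6 h to 0.22 at 24 h. For Nedd4l with the combination it was 0.85 ± 0.080 (adjusted p = 7.57e-08), from -0.43 to 0.43.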

How the results depend on the processing

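No result changed sign among those that were called, and the Txnip difference from untreated cells was above 0 in all 6 comparisons under each alternative. With a pseudocount of 5 it was 1.64 for trametinib and 2.11 for the combination at 6 h, and 4.40, 3.26 and 4.90 for chemotherapy, trametinib and the combination at 24 h. With protein-coding transcripts alone it was 0.78 for chemotherapy at 6 h and 4.35 at 24 h. Leaving out 1 library gave 0.39 to 0.67 for chemotherapy at 6 h. Under a Bonferroni adjusted p of 0.10, pathway genes higher and lower numbered 0 and 2 for chemotherapy, 9 and 5 for trametinib and 10 and 7 for the combination at 6 h, and 10 and 6 for chemotherapy and 13 and 7 for trametinib at 24 h, with 10 lower for the combination. Fitting only the groups compared gave 3 higher for chemotherapy at 6 h, and rescaling gave 19 lower for trametinib at 6 h. Leaving out 1 library gave 5 to 8 higher and 4 to 9 lower for chemotherapy at 6 h, with the fewest higher without the second untreated library. The cause was not tested, apart from the stricter p, which lowers counts by construction. The shares of all genes called under these alternatives are not given here, so these counts cannot be read against a background.

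The member transcripts with a changed share in the combination at 24 h numbered 0 with a pseudocount of 0.1, 0 with a minimum share of 10%, where Txnip-203 was not among those fitted, 0 with the replicate block, and 0 to 2 leaving out 1 library. The shares of all transcripts called under these alternatives are not given here, so these counts cannot be read against a background. Whether the replicate numbers pair the libraries was not settled. Deviations of libraries with the same number correlated at -0.28 to 0.33, over 0.1 in 5 of 18 pairs, all 5 of them at 24 h. Pairs of the same number and time share an untreated library, and libraries with different numbers were not compared. With the replicate block Txnip-203 had an adjusted p of 0.0533 against untreated cells, 0.0438 against chemotherapy and 0.0589 against trametinib, and the decay form of Arrdc3 in untreated cells one of 0.0334 (0.0759 with a pseudocount of 0.1). With unknown depth, the levels of Arrdc4 and of Txnip transcripts at 6 h carry a counting error that cannot be given.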
